A study of Mus musculus with 11 samples.

Results

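The imprinted fetal growth genes described here were H19, Igf2, Igf2r, Dlk1, Meg3, Cdkn1c, Peg3, Mest, Plagl1 and Grb10. They were taken by name from 11 tables of exonic read counts from mouse fetal liver, each matched by its Ensembl identifier to a symbol of the GRCm38 annotation. All 10 were found among 52636 listed genes, and all 10 were among the 17243 genes that passed the filter on low counts. Each table held the RNA of a fetal liver at E15.5, from a study of how the loss of caspase-8 together with TNFR1 kills the embryo.

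There were 4 genotypes, all untreated and on the inbred C57BL/6N background. WT livers (n = 3) carried no targeted allele. Livers labelled TNFR1KO (n = 2, called Tnfr1-/- here) lacked TNFR1, the receptor of tumour necrosis factor encoded by Tnfrsf1a. Livers labelled Casp8 MLKL dKO (n = 3, Casp8-/- Mlkl-/-) lacked caspase-8, which restrains necroptosis, together with MLKL, the protein that ruptures the membrane in necroptosis. Livers labelled Casp8 TNFR1 dKO (n = 3, Casp8-/- Tnfr1-/-) lacked caspase-8 and TNFR1 but could still make MLKL. All alleles were constitutive, and a whole liver was sequenced, so the libraries mixed hepatoblasts, blood precursors, macrophages, endothelium and stroma. The labels do not say whether livers of a genotype shared a litter, so p-values measure only the spread between these samples.

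Imprinted genes are read mainly from the copy of a given parent, because methylation laid down in the egg or the sperm marks the control region of each cluster. H19, Igf2r, Meg3, Cdkn1c and Grb10 are read mainly from the maternal copy, and in general restrain growth or sit at loci that do, whereas Igf2, Dlk1, Peg3, Mest and Plagl1 are read mainly from the paternal copy and in general promote it. Fetal liver is a main source of the growth factor IGF2, and many of these genes are switched down after birth. The embryos were inbred, so read counts could not assign a transcript to a parental copy, and nothing below measures imprinting itself.

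The genes lie on 6 chromosomes in GRCm38. H19, a long non-coding RNA, lies on chromosome 7 from 142575529 to 142578143 on the minus strand, next to Igf2 at 142650766 to 142666816, with Cdkn1c further along the same chromosome at 143458339 to 143461050. Dlk1 (chromosome 12, 109452823 to 109463336) and the non-coding Meg3 (109541001 to 109571726) share a cluster on the plus strand. Peg3 lies on chromosome 7 (6703892 to 6730431), Mest on chromosome 6 (30723547 to 30748465), Plagl1 on chromosome 10 (13060504 to 13131694), Grb10 on chromosome 11 (11930508 to 12038683) and Igf2r on chromosome 17 (12682406 to 12769664).

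H19 and Mest are also the hosts of microRNAs, whose mature sequences in RefSeq GRCm38.p6 are shown. The precursor of miR-675 lies in the exons of H19, with 84 shared bases. No exon of Mest overlaps an annotated microRNA, so exonic counts of Mest do not measure the RNA that holds miR-335. Capitals mark the seed, bases 2 to 8.
mmu-miR-675-5p (H19): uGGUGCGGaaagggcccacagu
mmu-miR-675-3p (H19): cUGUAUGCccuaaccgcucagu
mmu-miR-335-5p (Mest): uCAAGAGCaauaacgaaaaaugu
mmu-miR-335-3p (Mest): uUUUUCAUuauugcuccugacc
In all, 9 mature microRNAs lay within 4 of the 10 genes (the others in Igf2 and Meg3), and the 9 seeds were all different. The libraries held messenger-length RNA, and the microRNAs themselves were not measured.

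Bases before a start site are shown for Mest and Peg3, on which the comparisons below turn most. For Mest the whole window of 250 bases is shown. For Peg3 only 146 bases of its window are shown, the longest run free of annotated exons. The 104 bases left out lie at both ends of that run and include those nearest the start. Capitals mark TGCCGC, read on either strand as TGCCGC or GCGGCA. These letters are the core bound by ZFP57, a zinc finger protein that keeps methylation at imprinted control regions.
Mest, chr6:30737800-30738049, plus strand: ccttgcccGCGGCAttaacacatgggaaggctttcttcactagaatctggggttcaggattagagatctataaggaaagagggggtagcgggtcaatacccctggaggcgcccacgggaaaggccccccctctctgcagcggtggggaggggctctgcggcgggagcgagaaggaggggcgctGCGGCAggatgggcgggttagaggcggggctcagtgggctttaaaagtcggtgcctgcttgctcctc
Peg3, chr7:6730432-6730577, minus strand: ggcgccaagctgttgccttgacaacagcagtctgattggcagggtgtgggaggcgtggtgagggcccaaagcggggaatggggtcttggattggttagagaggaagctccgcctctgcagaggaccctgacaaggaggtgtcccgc
RefSeq gives 3 start windows for Mest, 2 of which differ by a shift of 3 bases. The window shown was picked as the first of these with TGCCGC, so the motif there follows from that choice. It held 2 copies and 14 CG pairs, against a median of 6 CG pairs over all 32851 windows of that length. Of all windows, 70.6% had fewer CG pairs. The start further upstream (chr6:30733256-30733505) had 0 copies and 7 CG pairs. Start windows were at hand for 8 of the 10 genes, 15 windows in all. The motif was in 4 of the 15 windows (the overlapping pair of Mest, and 1 each of Plagl1 and Meg3), and 8.7% of all windows held it. The GC box GGGCGG, on either strand, was in 8 of the 15 windows, all 3 of Mest included, and in 32.7% of all windows. A match is a description of the letters and not a measured site.

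The 11 libraries held between 23129212 and 35819339 counts. Casp8 stood at 7.82 to 21.9 CPM (counts per 1000000 counts of the library, after trimmed-mean TMM scaling) in the 6 livers labelled as lacking it and at 27.7 to 33.9 in the other 5. Mlkl stood at 0.730 to 1.22 CPM in the Casp8-/- Mlkl-/- livers and at 3.68 to 24.6 in the rest. Tnfrsf1a was not lower in the livers labelled as lacking TNFR1: 49.8 and 50.5 CPM in Tnfr1-/- and 76.0 to 425 in Casp8-/- Tnfr1-/-, against 47.1 to 53.4 in WT. A count over a whole gene does not show whether the targeted piece of the transcript is present, so the Tnfr1 labels are not checked by these values. All 20 hepatoblast and hepatocyte markers were detected in every genotype.

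A pair of livers stood apart, and the comparisons of the 10 genes are therefore given with and without them. The pair was picked after its values in these same data were seen. Adjusted p-values without the pair therefore follow in part from that choice and are not an independent test. The livers are described here. They had the lowest scaling factors, 0.758 in Casp8-/- Tnfr1-/- liver 3 and 0.812 in Casp8-/- Mlkl-/- liver 1, against 1.01 to 1.09 in the other 9. In Casp8-/- Tnfr1-/- liver 3, the summed level of 24 striated muscle genes was 2290 CPM against 37.6 to 80.7 in the other 9, and that of 18 stromal genes was 6864 CPM against 1404 to 1922. Hemoglobin genes (10) summed to 171803 CPM there against 34659 to 61046, the 20 hepatoblast and hepatocyte genes to 131586 against 57921 to 87972, and 15 endothelial genes to 1487 against 615 to 754. Not all 20 hepatoblast and hepatocyte genes shared the high sum. Hnf4a (121 CPM), Apob (802) and Rbp4 (647) were lower in this liver than in any of the other 9. This liver was also the only 1 of the 11 with high Xist, at 3409 CPM against at most 0.570 in the other 10, and Y-linked Ddx3y stood at 0.0570 CPM there. In Casp8-/- Mlkl-/- liver 1, the 20 hepatoblast and hepatocyte genes summed to 258888 CPM against 57921 to 87972, and 15 macrophage genes to 2054 CPM against 644 to 1169. A list of 14 cartilage and bone genes summed to 122 CPM in Casp8-/- Tnfr1-/- liver 1, to 47.4 in liver 2 and to 110 in liver 3. In the other genotypes it summed to 38.4 to 54.9. Casp8-/- Tnfr1-/- liver 1 was kept among the other 9, and the part of such RNA in its levels was not tested.

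**Figure D1:**
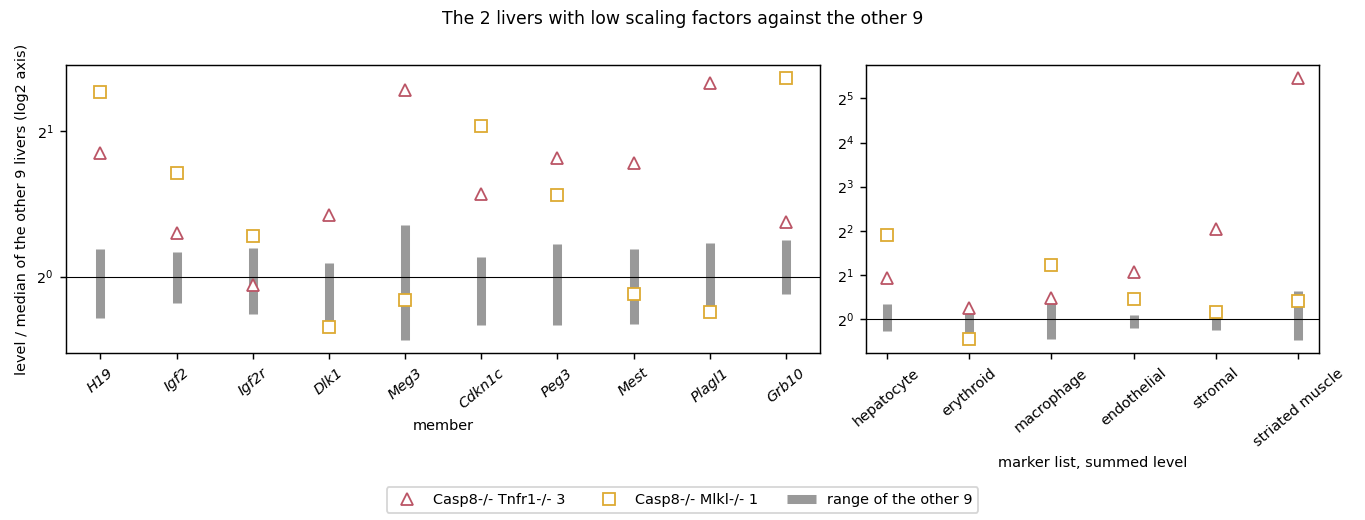
Left, the level of each gene in Casp8-/- Tnfr1-/- liver 3 (triangles) and Casp8-/- Mlkl-/- liver 1 (squares), divided by the median of the other 9 livers, on a log2 axis, with grey bars for the range of those 9. Right, the same for the summed level of 6 marker lists. Nearly all triangles lie above the bars on the left, the striated muscle list stands far above its bar in Casp8-/- Tnfr1-/- liver 3, and the hepatocyte list is highest in Casp8-/- Mlkl-/- liver 1.

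Of the 10 genes, 9 were higher in Casp8-/- Tnfr1-/- liver 3 than in any of those 9 livers. The highest were Plagl1 (2.52 times the median of the 9), Meg3 (2.43 times), H19 (1.80 times), Peg3 (1.76 times) and Mest (1.72 times). Igf2r alone lay inside the range, at 0.963 times. In the other liver of the pair, Casp8-/- Mlkl-/- liver 1, 6 of the 10 were above the range, led by Grb10 (2.57 times), H19 (2.40 times) and Cdkn1c (2.05 times), whereas Dlk1, Meg3, Mest and Plagl1 lay inside it. These livers were unusual for most genes: 77.5% of the 17243 tested genes in the former and 53.1% in the latter lay outside the range of the other 9, in either direction. The share above the range alone was not computed. The part of muscle, stromal, blood, endothelial or hepatocyte RNA in these levels was not tested. In whole tissue, fewer cells of a type and less RNA per cell cannot be told apart.

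In WT fetal liver all 10 genes were abundant (levels here are CPM per kilobase of gene length, mean ± SD, n = 3). H19 ranked 9 among the 17243 tested genes at 3709 ± 305, and Igf2 ranked 29 at 962 ± 69.1. Dlk1, the cell-surface Notch-family protein that marks hepatoblasts, followed at 230 ± 6.92, rank 137. The next were Grb10 (163 ± 1.72), an adaptor that damps insulin and IGF receptor signals, Mest (116 ± 10.2), a hydrolase-fold protein, and Cdkn1c (74.2 ± 4.0), an inhibitor of cyclin-dependent kinases.

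The lower 4 were Peg3, a zinc finger protein, at 51.9 ± 1.73, Meg3 at 45.2 ± 7.36, Plagl1, a zinc finger transcription factor, at 43.9 ± 3.30, and Igf2r, which carries IGF2 to the lysosome, at 43.0 ± 3.51. Meg3, Plagl1 and Igf2r did not differ beyond their spread, and nor did Peg3 and Meg3. Thus 6 of the 10 were among the most abundant 5% of tested genes, and the lowest, Igf2r, still ranked 1512. Together they took 1.80% of all WT counts, of which H19 alone took 0.853%.

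**Figure D2:**
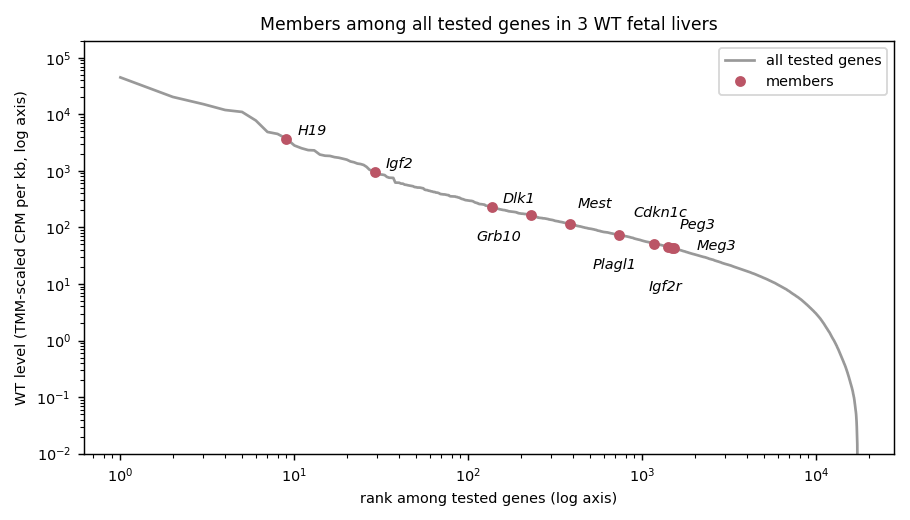
Mean level in the 3 WT livers (CPM per kilobase, log axis) of all tested genes in rank order (grey line, log axis) with the 10 genes as points. H19 and Igf2 lie near the top of the ranking at 3709 and 962, and the lowest of the 10, Igf2r, lies at 43.0.

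**Figure D3:**
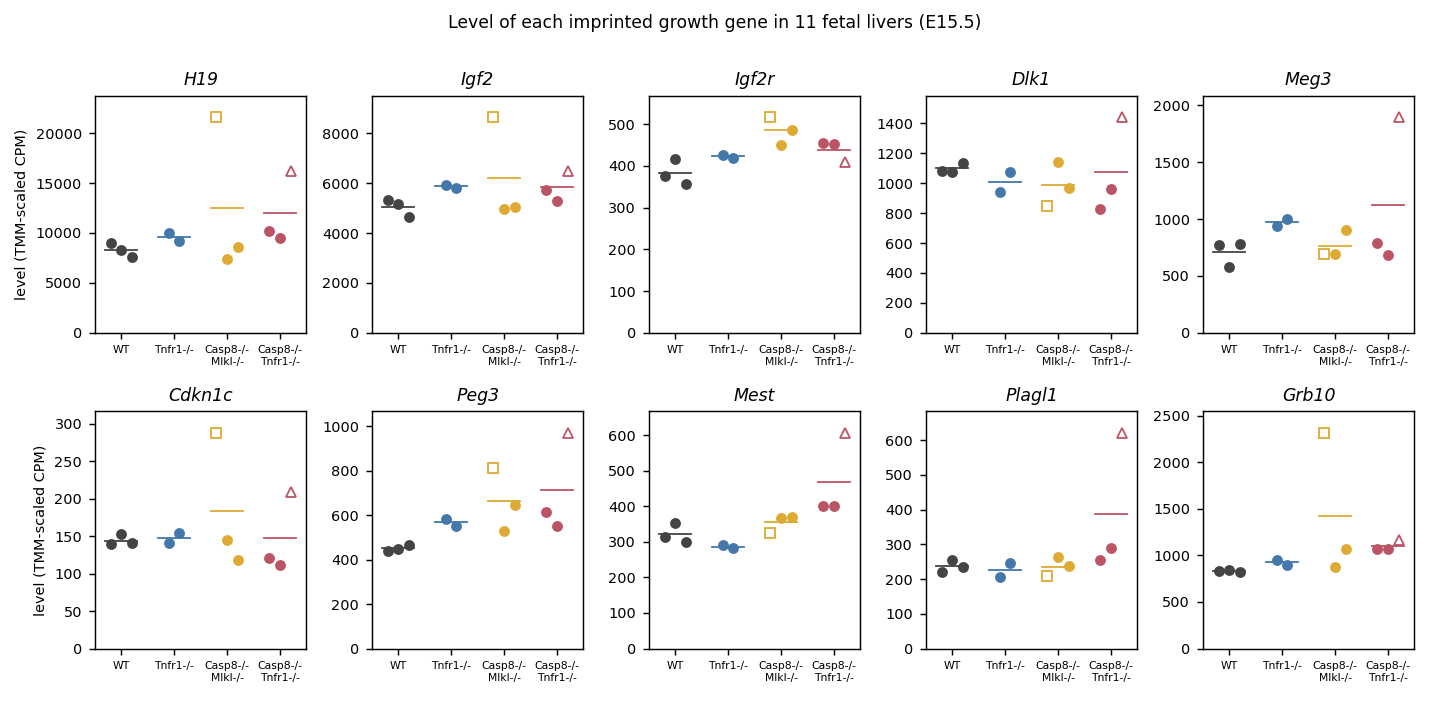
Level (CPM) of each gene in each liver by genotype, with a bar for the mean of each genotype. Open triangles are Casp8-/- Tnfr1-/- liver 3 and open squares Casp8-/- Mlkl-/- liver 1. In most panels an open symbol is the highest point, and Mest is the panel in which all 3 Casp8-/- Tnfr1-/- livers lie above the rest.

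H19 and Igf2 neighbour each other on chromosome 7 and share enhancers, H19 as the maternal non-coding RNA and precursor of miR-675, Igf2 as the paternal growth factor. H19 stood at 8985, 8248 and 7623 CPM in WT, at 10020.2 and 9205 in livers labelled Tnfr1-/-, at 21603, 7369 and 8567 in Casp8-/- Mlkl-/- and at 10233, 9523 and 16190.3 in Casp8-/- Tnfr1-/-. The 3 Casp8-/- Tnfr1-/- livers were all above the 3 WT livers, and the Casp8-/- Mlkl-/- livers lay on both sides of WT. Igf2 stood at 5339.6, 5163 and 4642 CPM in WT, at 5925 and 5815 in Tnfr1-/-, at 8645, 4961 and 5043 in Casp8-/- Mlkl-/- and at 5715, 5269 and 6497 in Casp8-/- Tnfr1-/-. For Igf2 the Casp8-/- Tnfr1-/- and WT livers overlapped.

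The log2 fold change of H19 in Casp8-/- Tnfr1-/- against WT was 0.53 ± 0.41 (SE; edgeR adjusted p = 0.430) and that of Igf2 was 0.21 ± 0.26 (edgeR adjusted p = 0.619), and neither passed. Without the pair of livers, H19 was 0.27 ± 0.10 log2 units higher (edgeR adjusted p = 0.0498), whereas Igf2, at 0.14 with an interval of -0.04 to 0.32, did not pass. The ratio of H19 to Igf2, both as CPM per kilobase, was 3.49 to 4.25 in the other 9 livers. It was 5.87 in Casp8-/- Mlkl-/- liver 1 and 5.86 in Casp8-/- Tnfr1-/- liver 3. Of the exonic bases of Igf2, 62.8% are shared on the same strand with Gm49394, a gene not listed in the tables.

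Dlk1 and Meg3, the paternally read protein and maternally read non-coding RNA of the chromosome 12 cluster, were measured next. Dlk1 stood at 1084, 1075 and 1136 CPM in WT, at 940.4 and 1073 in Tnfr1-/-, at 844, 1142 and 969 in Casp8-/- Mlkl-/- and at 827, 958 and 1441 in Casp8-/- Tnfr1-/-. In the other Casp8-/- Tnfr1-/- livers Dlk1 was thus below WT, and in liver 3 above it. Its log2 fold change against WT was -0.03 ± 0.22 (SE; edgeR adjusted p = 0.939) with all livers. With the pair left out it was -0.28 ± 0.09 (edgeR adjusted p = 0.0307).

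Meg3 stood at 773, 576 and 779 CPM in WT, at 942 and 998 in Tnfr1-/-, at 697, 695 and 906 in Casp8-/- Mlkl-/- and at 792, 684 and 1896 in Casp8-/- Tnfr1-/-. All genotypes but Tnfr1-/- overlapped with WT. For Meg3 the log2 fold change in Casp8-/- Tnfr1-/- against WT was 0.66 ± 0.35 (SE; edgeR adjusted p = 0.266) with all livers and 0.07 ± 0.13 (edgeR adjusted p = 0.722) without the pair, the latter with an interval of -0.21 to 0.35. In Tnfr1-/- against WT it was 0.45 ± 0.13 without the pair (edgeR adjusted p = 0.0930), which did not pass.

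Cdkn1c, Igf2r and Grb10 are maternally read genes that restrain growth, by blocking the cell cycle, clearing IGF2 and damping receptor signals respectively. Cdkn1c stood at 139, 153 and 140.4 CPM in WT, at 140.3 and 154 in Tnfr1-/-, at 288, 145 and 118 in Casp8-/- Mlkl-/- and at 121, 111 and 208 in Casp8-/- Tnfr1-/-. As for Dlk1, the Casp8-/- Tnfr1-/- livers lay on both sides of WT, with liver 3 above. For Cdkn1c the log2 fold change against WT was 0.03 ± 0.33 (SE; edgeR adjusted p = 0.964) with all livers, and -0.29 ± 0.09 (edgeR adjusted p = 0.0212) without the pair, so the sign turned with the choice of livers. Antisense Gm44732 covers 30.7% of the exons of Cdkn1c but had only 4 to 28 counts per library.

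Igf2r stood at 376, 417 and 355 CPM in WT, at 425 and 419.6 in Tnfr1-/-, at 516, 451 and 486 in Casp8-/- Mlkl-/- and at 456, 452 and 409 in Casp8-/- Tnfr1-/-. All 3 Casp8-/- Mlkl-/- livers were above all 3 WT livers, and the Casp8-/- Tnfr1-/- livers overlapped with WT. In Casp8-/- Mlkl-/- the log2 fold change of Igf2r against WT was 0.34 ± 0.13 (SE; edgeR adjusted p = 0.875), and 0.30 ± 0.07 (edgeR adjusted p = 0.0302) without the pair of livers. Against the same WT livers Casp8-/- Tnfr1-/- gave 0.20 ± 0.13 (edgeR adjusted p = 0.370) and, without the pair, 0.26 ± 0.07 (edgeR adjusted p = 0.0142). With all livers Igf2r had the lowest SD within genotypes of the 10, 0.0936 log2 units, but without the pair Igf2 (0.0771) and Mest (0.0802) were below it (0.0816).

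Grb10 stood at 836, 844 and 827 CPM in WT, at 951 and 899 in Tnfr1-/-, at 2315, 879.8 and 1064 in Casp8-/- Mlkl-/- and at 1071, 1073 and 1169 in Casp8-/- Tnfr1-/-. WT was the lowest genotype, with no WT liver reaching any other, and the share of all tested genes like this was not computed. The log2 fold change in Casp8-/- Tnfr1-/- against WT was 0.40 ± 0.31 (SE; edgeR adjusted p = 0.430) with all livers and 0.38 ± 0.08 (edgeR adjusted p = 0.00218) without the pair, so its size hardly moved and its error shrank. For Casp8-/- Mlkl-/- against WT it was 0.76 ± 0.31 (edgeR adjusted p = 0.875) with all livers and 0.22 ± 0.08 (edgeR adjusted p = 0.112) without.

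Peg3, Mest and Plagl1 are paternally read genes of growth and mesodermal tissues. Peg3 stood at 439, 447 and 468 CPM in WT, at 582 and 553 in Tnfr1-/-, at 814, 528 and 647 in Casp8-/- Mlkl-/- and at 614, 553 and 971 in Casp8-/- Tnfr1-/-. Again WT was the lowest genotype, and no WT liver reached any mutant liver, which was not counted over all tested genes. Its log2 fold change against WT was 0.66 ± 0.23 in Casp8-/- Tnfr1-/- (SE; edgeR adjusted p = 0.126), 0.55 ± 0.23 in Casp8-/- Mlkl-/- (edgeR adjusted p = 0.875) and 0.33 ± 0.26 in Tnfr1-/- (edgeR adjusted p = 1). Without the pair of livers these were 0.39 ± 0.08 (edgeR adjusted p = 0.00302), 0.38 ± 0.08 (edgeR adjusted p = 0.0184) and 0.33 ± 0.08 (edgeR adjusted p = 0.0760). Between the mutant genotypes Peg3 then differed by at most 0.06 log2 units, with intervals of the difference from -0.20 to 0.26.

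Mest stood at 313, 353 and 298 CPM in WT, at 291 and 282 in livers labelled Tnfr1-/-, at 326, 368 and 369 in Casp8-/- Mlkl-/- and at 402, 400.3 and 606 in Casp8-/- Tnfr1-/-. It was the only 1 of the 10 whose 3 Casp8-/- Tnfr1-/- livers were all above the other 8, as were 7.43% of all tested genes. The Casp8-/- Tnfr1-/- log2 fold change of Mest was 0.55 ± 0.18 against WT (SE; edgeR adjusted p = 0.109), 0.71 ± 0.21 against Tnfr1-/- (edgeR adjusted p = 0.128) and 0.41 ± 0.18 against Casp8-/- Mlkl-/- (edgeR adjusted p = 0.327). Without the pair of livers the first was 0.34 ± 0.07 (edgeR adjusted p = 0.00262), the second 0.50 ± 0.08 (edgeR adjusted p = 0.000360) and the last 0.13 ± 0.08 (edgeR adjusted p = 0.292), with an interval of -0.04 to 0.30. Of the exons of Mest, 23.1% overlap Copg2 on the other strand (597 to 1721 counts per library), and the use of strand in counting is not given in the sources used here.

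Plagl1 stood at 219.8, 255 and 234 CPM in WT, at 206 and 247 in Tnfr1-/-, at 209, 263 and 237 in Casp8-/- Mlkl-/- and at 254, 289 and 621 in Casp8-/- Tnfr1-/-. Its high value lay in liver 3, and the other Casp8-/- Tnfr1-/- livers were close to WT. The log2 fold change against WT was 0.71 ± 0.30 (SE; edgeR adjusted p = 0.179) with all livers and 0.21 ± 0.09 (edgeR adjusted p = 0.0937) without the pair.

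Across the set with all 11 livers, the quasi-likelihood test of edgeR (p adjusted over 17243 genes by the method of Benjamini and Hochberg) called none of the 10 in the test over the 4 genotypes, in which it called 3.6% of all tested genes. It also called none in Casp8-/- Tnfr1-/- against WT (5.8% of all tested genes called), against Tnfr1-/- (2.17%) or against Casp8-/- Mlkl-/- (1.65%), in Casp8-/- Mlkl-/- against WT (0.0058%) or against Tnfr1-/- (0.0058%), or in Tnfr1-/- against WT (0%). At an unadjusted p under 0.05, edgeR gave 1 of the 10 over the 4 genotypes (Mest; 15.3% of all tested genes) and 3 in Casp8-/- Tnfr1-/- against WT (Peg3, Mest and Plagl1; 24.6%), shares near those of all genes. It gave 2 against Tnfr1-/- (Mest and Plagl1; 16.3% of all tested genes), 1 against Casp8-/- Mlkl-/- (Plagl1; 15.3%), 3 in Casp8-/- Mlkl-/- against WT (Igf2r, Peg3 and Grb10; 5.63%), 0 in Casp8-/- Mlkl-/- against Tnfr1-/- (2.01%) and 0 in Tnfr1-/- against WT (1.08%). DESeq2, which called 14% of all tested genes in Casp8-/- Tnfr1-/- against WT, called Mest there (log2 fold change 0.56, DESeq2 adjusted p = 0.0436). It also called Mest against Tnfr1-/- (0.72, DESeq2 adjusted p = 0.0232, 7.5% of all tested genes called) and over the 4 genotypes (10.3% called). DESeq2 called none of the 10 against Casp8-/- Mlkl-/- (5.56% of all tested genes called), in Casp8-/- Mlkl-/- against WT (0.532%) or against Tnfr1-/- (0.266%), or in Tnfr1-/- against WT (0%). For limma-voom none of the 10 was called in any comparison. Of the 17243 genes it called 369 over the 4 genotypes. In Casp8-/- Tnfr1-/- it called 807 against WT, 392 against Tnfr1-/- and 307 against Casp8-/- Mlkl-/-. It called 1 in Casp8-/- Mlkl-/- against WT, and 0 in Tnfr1-/- against WT and in Casp8-/- Mlkl-/- against Tnfr1-/-.

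Other treatments of the uneven livers moved these counts. limma-voom with quality weights, which gives libraries far from their group less weight, called 4 of the 10 over the 4 genotypes (31.8% of all tested genes called). It called 5 in Casp8-/- Tnfr1-/- against WT (30.6%), 1 against Tnfr1-/- (25.1%), 0 against Casp8-/- Mlkl-/- (15.7%), 2 in Casp8-/- Mlkl-/- against WT (6.04%), 0 in Tnfr1-/- against WT (1.57%) and 1 in Casp8-/- Mlkl-/- against Tnfr1-/- (3%). Leaving out only Casp8-/- Tnfr1-/- liver 3, edgeR called Mest against Tnfr1-/- (log2 fold change 0.49, edgeR adjusted p = 0.0428, 5.19% of all tested genes called). Fitted on the WT and Tnfr1-/- livers alone, edgeR called Peg3 (0.34, edgeR adjusted p = 0.0295, 1.6% of all tested genes called).

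The directions from WT depended in part on the pair of livers. Against WT, 9 of the 10 Casp8-/- Tnfr1-/- log2 fold changes were positive, with a median of 0.47 against -0.0015 over all tested genes, and without the pair 8 were, with a median of 0.24 against 0.0050. In Casp8-/- Mlkl-/- against WT 8 were positive, median 0.32 against 0.028, and without the pair 6, median 0.13 against -0.0014, with H19, Igf2, Dlk1 and Cdkn1c then below 0. In Tnfr1-/- against WT 7 were positive, median 0.14 against 0.0032, and the same number and median held without the pair. These comparisons share the 3 WT livers.

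Genes whose livers did not overlap between genotypes were counted beside the share of all tested genes that behaved so. In Casp8-/- Tnfr1-/- against WT, 4 of the 10 genes were higher in every mutant liver (H19, Peg3, Mest and Grb10) and none lower, where 19.5% of all tested genes were higher and 18.9% lower in that way. Against WT, Casp8-/- Mlkl-/- gave 3 (Igf2r, Peg3 and Grb10; 10.8% of all genes higher and 11.1% lower). In Tnfr1-/- against WT, with only 2 livers, 6 of the 10 were higher (17.3% of all genes) and Dlk1 and Mest lower (18.4%). Casp8-/- Tnfr1-/- livers were all above both Tnfr1-/- livers for Mest, Plagl1 and Grb10 (20.5% of all genes higher, 20.6% lower), and all above the Casp8-/- Mlkl-/- livers for Mest (9.61% higher, 6.15% lower). Without the pair, 6 of the 10 were higher in Casp8-/- Tnfr1-/- than in WT (H19, Igf2r, Peg3, Mest, Plagl1 and Grb10; 28.2% of all genes higher) and Dlk1 and Cdkn1c lower (25% lower). Against WT, Casp8-/- Mlkl-/- then gave 4 higher (Igf2r, Peg3, Mest and Grb10; 19.1% of all genes higher, 18.9% lower).

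Without the pair of livers the spread fell, the biological coefficient of variation going from 33.3% to 8.27%, and many more genes passed. The pair was left out for its distance from the rest in these same data. The smaller spread follows in part from that choice. In Casp8-/- Tnfr1-/- against WT, 7 of the 10 then passed edgeR's test (31.3% of all genes called): H19, Igf2r, Peg3, Mest and Grb10 rose, where 17.8% of the 16958 tested genes rose, and Dlk1 and Cdkn1c fell, where 13.5% fell. Against Tnfr1-/- (23.2% of all genes called) Mest rose (13.9% of all genes rose) and Cdkn1c fell by 0.33 log2 units (edgeR adjusted p = 0.0243; 9.3% of all genes fell), and against Casp8-/- Mlkl-/- none of the 10 passed (18.1% of all genes called), with Dlk1 at an unadjusted p of 0.0382 and H19 at 0.00972 (29.4% of all genes were under 0.05). In Casp8-/- Mlkl-/- against WT, Igf2r and Peg3 rose (6.4% of all genes called, 3.23% higher and 3.18% lower), and against Tnfr1-/- Mest rose by 0.37 log2 units (edgeR adjusted p = 0.0197; 3.49% called, 1.19% higher and 2.31% lower). None passed in Tnfr1-/- against WT (0.678% of all genes called), where 5 of the 10 and 18.1% of all genes had an unadjusted p under 0.05. Over the 4 genotypes 5 of the 10 passed (Igf2r, Cdkn1c, Peg3, Mest and Grb10; 30.8% of all genes called). This fit compares 2 livers of each mutant genotype with 3 WT livers. It keeps Casp8-/- Tnfr1-/- liver 1, in which the cartilage and bone genes were high.

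**Figure D4:**
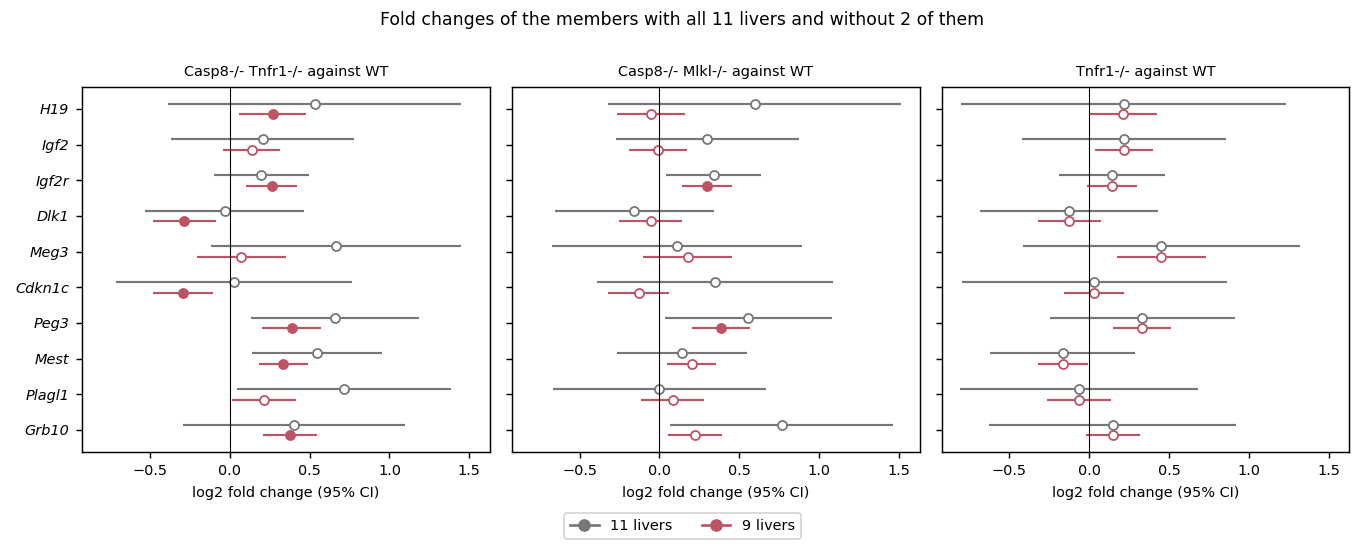
Log2 fold change with its 95% interval (edgeR) of each gene in 3 comparisons with WT, from the fit of all 11 livers (grey) and of 9 livers (red). Filled points have an adjusted p under 0.05, open points do not. The red intervals are the narrower, and Dlk1 and Cdkn1c move below 0 in Casp8-/- Tnfr1-/- when the pair of livers is left out.

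Set against all other 8 livers together, Mest was 0.51 log2 units higher in the 3 Casp8-/- Tnfr1-/- livers (exact permutation test, two-sided, p = 0.00606, the smallest that splits of 3 against 8 livers allow). It was the only 1 of the 10 whose livers did not overlap here, where 7.43% of all tested genes were higher and 3.32% lower in all 3. Plagl1 was 0.62 units higher (exact permutation p = 0.0182), with its size set largely by liver 3, and for the other 8 genes this exact permutation p was at least 0.182. Without the pair, Mest and Grb10 were higher in both Casp8-/- Tnfr1-/- livers than in the other 7 (exact permutation p = 0.0278 each, the smallest possible), as were 18.6% of all tested genes, with 12.3% lower. These are 10 unadjusted tests, and the 8 livers join 3 genotypes.

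The other genes of the insulin-like growth factor pathway were taken as a list of 26, of which 25 were tested. With all 11 livers edgeR called none of them in any comparison. In Casp8-/- Tnfr1-/- against WT 5 had an unadjusted p under 0.05 (24.6% of all tested genes) and DESeq2 called 3 (14%). The gene with the highest mean level over the 11 livers was Igfbp1, a secreted protein made by hepatocytes that binds IGFs. It ranked so through the livers in which it was high, and in WT it was below Igfbp4, so its differences are a description with no test. It stood at 90.8, 66.3 and 89.1 CPM in WT, at 114 and 75.5 in Tnfr1-/-, at 1096, 79.7 and 265 in Casp8-/- Mlkl-/- and at 342, 402 and 7238 in Casp8-/- Tnfr1-/-.

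All 3 Casp8-/- Tnfr1-/- livers were thus above every WT and Tnfr1-/- liver for Igfbp1, over a wide range. Of all tested genes, 19.5% were higher in this way against WT and 20.5% against Tnfr1-/-. The log2 fold change of Igfbp1 against WT was 5.02 ± 1.35 (SE) with all livers and 2.20 ± 0.33 without the pair. Igfbp4, another IGF-binding protein, was 0.38 ± 0.32 log2 units apart (edgeR adjusted p = 0.457) with all livers and 0.31 ± 0.09 (edgeR adjusted p = 0.0211) without the pair. In that smaller fit, 9 of the 25 rose (17.8% of all genes) and 2 fell (13.5%) in Casp8-/- Tnfr1-/- against WT, with a median log2 fold change of 0.20 against 0.0050 over all genes. Igf1 and its receptor Igf1r are plotted beside these as the classical ligand and receptor, chosen after their values were seen.

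**Figure D5:**
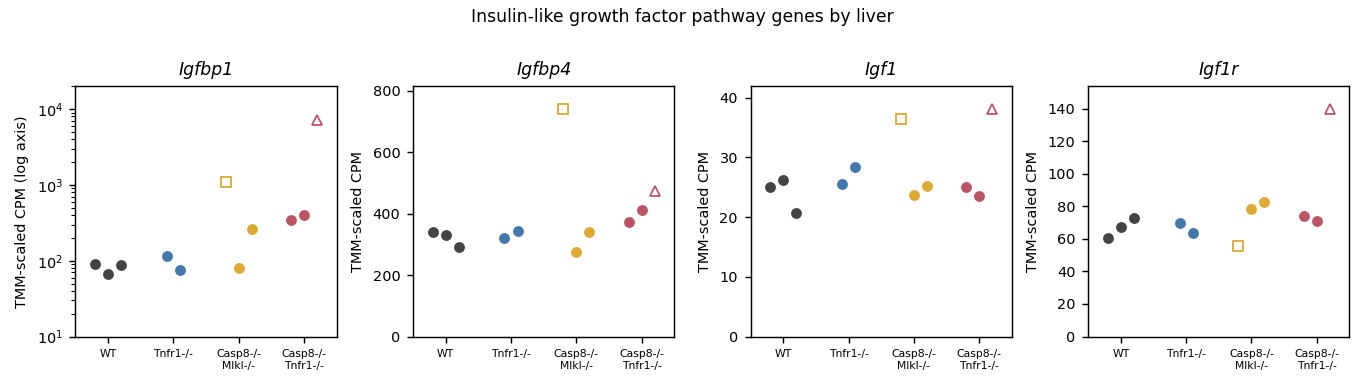
Level (CPM) by liver and genotype of Igfbp1 (log axis), Igfbp4, Igf1 and Igf1r, with Casp8-/- Tnfr1-/- liver 3 as an open triangle and Casp8-/- Mlkl-/- liver 1 as an open square. The Igfbp1 points run from 66.3 to 7238, with all 3 Casp8-/- Tnfr1-/- livers above the WT livers, as for 19.5% of all tested genes.

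Of 48 further imprinted genes, 44 were tested. In Casp8-/- Tnfr1-/- against WT edgeR called 1 of them higher (5.1% of all tested genes), Asb4, which encodes a substrate adaptor of a ubiquitin ligase, and it called none in the other pairwise comparisons. Asb4 stood at 12.1, 15.51 and 13.1 CPM in WT and at 12.5 and 14.5 in Tnfr1-/-. It stood at 11.1, 18.3 and 17.8 in Casp8-/- Mlkl-/- and at 23.2, 24.4 and 28.3 in Casp8-/- Tnfr1-/-. The Casp8-/- Tnfr1-/- livers were all above the WT livers, as for 19.5% of all tested genes. Asb4 was named because edgeR called it, so these values are a description and not a further test. The log2 fold change of Asb4 against WT was 0.90 ± 0.21 (SE; edgeR adjusted p = 0.0375) with all livers and 0.83 ± 0.12 (edgeR adjusted p = 8.45e-05) without the pair. The median log2 fold change of the 44 was 0.20, and 10 of them had an unadjusted p under 0.05 in Casp8-/- Tnfr1-/- against WT (24.6% of all tested genes), where DESeq2 called 5 (14%). Without the pair, 41 were tested, of which 8 rose (17.8% of all genes) and 3 fell (13.5%), and their median was -0.02.

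Proteins that keep or erase imprinting marks were represented by 12 tested genes of 14, and edgeR called none of them in any comparison with all 11 livers. In Casp8-/- Tnfr1-/- against WT 3 had an unadjusted p under 0.05 (24.6% of all tested genes) and DESeq2 called 2 (14%). Dnmt1, the maintenance DNA methyltransferase, stood at 439 to 476 CPM in WT and at 411, 404 and 157 in Casp8-/- Tnfr1-/-. Trim28, the co-repressor that ZFP57 recruits, stood at 389.7 to 398 CPM in WT and at 311, 353 and 176. For both, the Casp8-/- Tnfr1-/- livers lay below the WT livers, as for 18.9% of all tested genes, with liver 3 the lowest. Trim28 was below every WT liver in the other mutants too, at 333 and 352 CPM in Tnfr1-/- and 274, 362 and 352 in Casp8-/- Mlkl-/-. Dnmt1 overlapped with WT there, at 474 and 458 in Tnfr1-/- and 268, 518 and 457 in Casp8-/- Mlkl-/-. The log2 fold changes were -0.49 ± 0.35 for Dnmt1 (SE; edgeR adjusted p = 0.395) and -0.49 ± 0.24 for Trim28 (edgeR adjusted p = 0.231). With the pair left out they were -0.14 ± 0.07 (edgeR adjusted p = 0.151) and -0.23 ± 0.07 (edgeR adjusted p = 0.0214), and 2 of the 12 rose (17.8% of all genes) and 4 fell (13.5%).

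Cell type lists give the setting of these values. The summed level of 15 erythroid genes was 21765 to 22040 CPM in WT, 21136 to 23091 in Tnfr1-/- and 15537 to 20809 in Casp8-/- Mlkl-/-. In Casp8-/- Tnfr1-/- it was 16966 in liver 1 and 15171 in liver 2, both below WT, and 25221 in liver 3. With the pair left out, all 15 erythroid genes fell in Casp8-/- Tnfr1-/- against WT (edgeR, 13.5% of all genes fell), with a median log2 fold change of -0.43. In that fit 7 of 18 stromal genes rose (17.8% of all genes). Of 20 hepatoblast and hepatocyte genes 5 rose and 6 fell, and of 15 macrophage genes 4 rose and 6 fell. Of 15 endothelial genes 5 rose and 1 fell, and all 9 tested hemoglobin genes fell. Among tested genes, 3 of 19 of striated muscle, 4 of 8 of cartilage and bone and 2 of 6 of adrenal, kidney and gut rose. The part of these cell types in the changes of the imprinted genes was not tested.

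Likeness was described for H19, Igf2 and Dlk1, over 9682 genes with a mean of at least 10 CPM and 11 livers of 4 genotypes. H19 was most like Pgm1 (Pearson r = 0.991), C1s1 (0.989) and Pygl (0.988), with r of 0.991, 0.991 and 0.984 without Casp8-/- Tnfr1-/- liver 3. Igf2 was most like Pzp (r = 0.978), Clmn (0.978) and Galnt11 (0.976). Dlk1 was most like Mier1 (r = 0.955), Nptn (0.938) and Rps9 (0.931), and without that liver these were 0.918, 0.951 and 0.864. The values share libraries and their scaling, and for H19 and Igf2 Casp8-/- Mlkl-/- liver 1 was the highest point.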

How the data were processed

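RNA was measured in 11 fetal livers by single-end sequencing. The authors aligned reads with GSNAP to GRCm38/mm10 and deposited, per the file headers, raw counts per gene, gene widths and RPKM. The counting tool and annotation release are not given in the sources used here. The labels name an unstranded kit and the study's methods a stranded one, so antisense overlaps may share reads.

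The deposited counts were filtered with filterByExpr (minimum count 10), scaled by TMM and fitted with edgeR 4.0.16 (quasi-likelihood test, all genotypes in one fit, no covariates), with p-values adjusted by Benjamini-Hochberg over 17243 genes and a threshold of 0.05. Levels between genes were compared as CPM per kilobase of deposited width. The study used limma; limma 3.58.1 (voom) and DESeq2 1.42.0 were alternatives, as were other scalings, filters, the deposited RPKM values, a replicate block, leaving out livers, and a prior count of 0.5 in place of 2 in log2 CPM. The exact permutation test used log2 CPM.

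The 10 genes and all lists were chosen with earlier results of these data known. Named beyond the 10 were, of each pathway list, up to 4 called genes or, with none called, the 2 most abundant, and the 3 genes most correlated with H19, Igf2 and Dlk1. Symbols came from GENCODE M21, sequences from RefSeq GRCm38.p6.

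On simulated counts for Casp8-/- Tnfr1-/- against WT (17243 genes), the test recovered 9 of 100 genes changed by 1 log2 unit. It recovered 49 of 100 changed by 2, with 2 false calls. In that comparison the log2 fold changes of the 10 genes were -0.03 to 0.71, smaller than the simulated sizes. The fit without the pair of livers was not simulated. These rates therefore do not show how often changes of the 10 genes would be found in either fit.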

Additional observations from a re-analysis of the deposited data

How the results depend on the processing

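Of 1320 recomputed fold changes of the 10 genes (60 gene and comparison pairs), 1295 made no change of call, 24 became calls, and 1 became a call of the opposite sign. The sign of 89 values turned, 25 of them where the first value was at least 0.2 in size, among them H19 in Casp8-/- Mlkl-/- against WT (0.59 to -0.05) and Grb10 in Casp8-/- Tnfr1-/- against Casp8-/- Mlkl-/- (-0.36 to 0.16) without both livers of low scaling factor. The call of opposite sign was Cdkn1c in Casp8-/- Tnfr1-/- against WT, from 0.03 to -0.29 with both left out. The number of the 10 called was 0 in every comparison, and moved as follows. DESeq2 called 1 over the 4 genotypes, 1 in Casp8-/- Tnfr1-/- against WT and 1 against Tnfr1-/-, Mest each time. limma-voom with quality weights called 4 over the 4 genotypes, 5 and 1 in Casp8-/- Tnfr1-/- against WT and Tnfr1-/-, and 2 and 1 in Casp8-/- Mlkl-/- against WT and Tnfr1-/-. Leaving out both livers called 5, 7, 2, 2 and 1 in the same order. A fit of 2 genotypes alone called 1 (Peg3, log2 fold change 0.34) in Tnfr1-/- against WT. Leaving out each liver in turn gave 0 to 1 in Casp8-/- Tnfr1-/- against Tnfr1-/-, the 1 being Mest (0.49, edgeR adjusted p = 0.0428) without Casp8-/- Tnfr1-/- liver 3, and 0 in the other comparisons. The count under an exact permutation p of 0.05 was 2, and 1 to 4 on leaving out livers: 4 without Casp8-/- Mlkl-/- liver 1 (H19, Mest, Plagl1 and Grb10) and 1 without Casp8-/- Tnfr1-/- liver 3 (Mest). Without both, chosen after seeing the data, it was 2 (Mest and Grb10). The share of all tested genes under that exact permutation p was not computed, so these counts have no background. The cause of these moves was not tested. Over all genes, 1000 were called in Casp8-/- Tnfr1-/- against WT, but 2364 by DESeq2, 5279 with quality weights, 5314 without both livers, 486 in a fit of those genotypes alone and 572 with the replicate block, and 281 (without WT liver 3) to 1674 (without Casp8-/- Tnfr1-/- liver 3) on leaving out each liver. The 6 genes in the top 5% by WT level were 6 under every scaling tried and the deposited RPKM. With the replicate number as a block, edgeR called 0 of the 10 in every comparison. Of all genes that fit called 279 over the 4 genotypes. In Casp8-/- Tnfr1-/- it called 572 against WT, 189 against Tnfr1-/- and 144 against Casp8-/- Mlkl-/-. It called 1 in Casp8-/- Mlkl-/- against Tnfr1-/-, and 0 in Casp8-/- Mlkl-/- and in Tnfr1-/- against WT. The numbers did not pair the livers: the correlation of deviations was -0.30 to 0.27 for the same number and -0.28 to 0.31 for different ones. The groups hold 2 or 3 livers, and depth was not limiting, since the lowest count of any of the 10 in a library was 3078.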
